A study of Mus musculus with 4 samples.

Results

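Cholesterol and fatty acid synthesis genes were followed across 4 groups of mouse embryonic fibroblasts, as a set of 30 genes named by symbol for their place in the mevalonate, sterol and fatty acid pathways or in their control. Of these, 29 were found among the 27597 genes of the deposited tables, and Hmgcs1, the synthase that feeds the mevalonate pathway, has no expression value here and enters only the count of promoter motifs. The cells came from the skin of strain OGXICR embryos, labelled D13.5, with the epidermis taken off, and carried a doxycycline-inducible lentivirus. OSKM cells received OCT4, SOX2, KLF4 and c-MYC, G3SKM cells received GATA3 in place of OCT4, SKM cells received SOX2, KLF4 and c-MYC, and the remaining cells received an empty vector. The study asked which factors, besides those 4, can take part in reprogramming. The time after induction is not given in the sources used here. A gene had 1 value in each group, made from 2 replicates, which leaves the spread between replicates unknown, and no test was made. Differences are given as folds of the deposited RPKM, the reads on a gene divided by its length in kilobases and by the library's total, with 95% Clopper-Pearson intervals in brackets. These intervals cover counting error only, and they are too narrow because the cDNA was amplified by PCR.

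Cells build cholesterol from acetyl-CoA through mevalonate, farnesyl diphosphate, squalene and lanosterol, and they build fatty acids from the same acetyl-CoA through malonyl-CoA. The transcription factors SREBP1 and SREBP2, held in the endoplasmic reticulum by INSIG proteins when sterols are plentiful and released by SCAP and the site proteases when sterols are short, activate most genes of both pathways. SREBP1 is known mainly for fatty acid genes and SREBP2 mainly for sterol genes. SREBPs act together with NF-Y, which binds CCAAT boxes close to the start of their target genes. Fibroblasts grown in serum take up sterol from lipoproteins and also make their own.

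The promoters of the 4 members that passed the rule of size on the deposited scale, explained with the levels below, are shown, with the CCAAT boxes they hold; for Dhcr7 the window shown is the one with the box. Each is a RefSeq window of 300 bases (GRCm38.p6), from 250 before to 50 after an annotated start, written 5′ to 3′ on the gene's strand, with CCAAT or its reverse complement ATTGG in capitals (in Fasn a pair of them overlaps). Dhcr7 has 3 annotated starts, of which the other 2 hold no CCAAT in their windows, and the values per gene do not show which start was used.
Dhcr7 (chr7:143829964-143830263, plus strand): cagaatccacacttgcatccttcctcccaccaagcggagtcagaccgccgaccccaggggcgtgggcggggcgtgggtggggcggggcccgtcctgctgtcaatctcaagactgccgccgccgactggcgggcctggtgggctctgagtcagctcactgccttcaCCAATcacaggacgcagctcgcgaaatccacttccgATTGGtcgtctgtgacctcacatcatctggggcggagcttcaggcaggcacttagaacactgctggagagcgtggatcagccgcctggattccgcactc
Mvd (chr8:122443373-122443672, minus strand): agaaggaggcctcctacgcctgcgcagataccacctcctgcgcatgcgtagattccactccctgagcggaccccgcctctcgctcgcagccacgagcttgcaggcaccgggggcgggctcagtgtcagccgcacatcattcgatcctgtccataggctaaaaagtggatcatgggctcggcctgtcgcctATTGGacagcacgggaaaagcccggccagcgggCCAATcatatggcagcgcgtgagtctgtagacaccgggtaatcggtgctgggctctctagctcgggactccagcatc
Idi1 (chr13:8885356-8885655, plus strand): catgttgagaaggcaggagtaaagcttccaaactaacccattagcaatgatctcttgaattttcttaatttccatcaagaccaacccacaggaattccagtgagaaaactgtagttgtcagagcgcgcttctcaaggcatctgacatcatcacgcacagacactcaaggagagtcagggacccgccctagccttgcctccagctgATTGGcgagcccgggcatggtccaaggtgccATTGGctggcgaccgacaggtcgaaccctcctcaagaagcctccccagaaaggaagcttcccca
Fasn (chr11:120824498-120824797, minus strand): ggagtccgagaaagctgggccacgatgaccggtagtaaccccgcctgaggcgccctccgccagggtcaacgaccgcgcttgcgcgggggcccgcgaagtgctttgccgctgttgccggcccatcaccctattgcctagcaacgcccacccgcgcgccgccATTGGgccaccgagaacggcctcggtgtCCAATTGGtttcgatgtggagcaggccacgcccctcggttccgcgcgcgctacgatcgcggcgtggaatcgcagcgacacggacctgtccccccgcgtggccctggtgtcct
RefSeq windows were found for 23 of the 30 members, 28 windows in all, and 7 members had none. CCAAT, searched on both strands, was in 20 of the 28 windows (71.4%), against 37.4% of the 32851 windows of all genes. It was in a window of 19 of the 23 members. The E-box CACGTG was in 4 of 28 windows (14.3%), those of Hsd17b7, Sc5d, Insig1 and a Dhcr7 start other than the one shown, against 7.15% of all windows. The sterol regulatory element searched as TCACNCCAC on both strands was in the Hmgcs1 window alone among the members (3.57%), against 1.24% of all windows. The median window of the members held 62.5% G and C, against 52.7% for all windows, and base composition changes how often such short motifs occur. A match describes these letters and is no evidence of binding.

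On a scale corrected to exon length, which takes introns out when genes are compared, all 29 members were at 1 RPKM or more in every group. The length is that of all annotated exons of a gene together, so the order of genes depends in part on annotation. Scd2, a stearoyl-CoA desaturase that makes monounsaturated fatty acids, stood highest, at 76.2 RPKM in OSKM, 63.9 in G3SKM, 83.9 in SKM and 57.4 in empty vector cells. Tm7sf2, a sterol reductase, stood lowest, at 2.50, 3.05, 3.32 and 1.19 RPKM in the same order of groups. Its annotated exons cover 4403 of its 5553 bases, and on the deposited scale Acaca stood lowest. The median member was at 13.0 RPKM in OSKM, 14.5 in G3SKM, 13.7 in SKM and 11.9 in empty vector cells. The deposited values divide by the whole gene with its introns, which puts long genes low. On that scale 25 members reached 1 RPKM in OSKM, 25 in G3SKM, 26 in SKM and 24 in empty vector cells. Nsdhl, Acaca and Elovl6 stayed under it in every group. In the order of roles below, values are deposited RPKM unless exon length is named. A member is called higher or lower when its ratio of RPKM + 1 has a log2 of at least 1 in size and it reaches 1 RPKM in at least 1 of the groups compared.

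**Figure D1:**
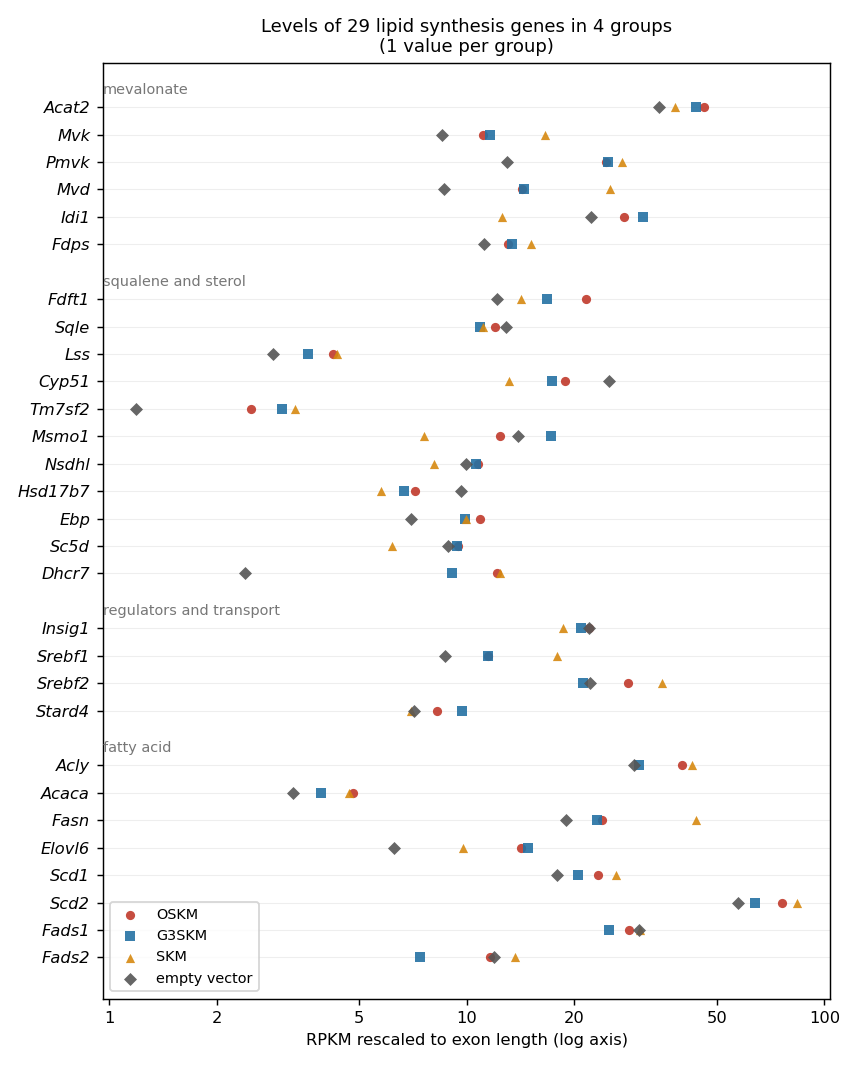
RPKM rescaled to exon length on a log axis, 1 point per group for each of the 29 members, ordered by role. Dhcr7 and Tm7sf2 have an empty vector point well to the left of the other 3, Idi1 and Msmo1 have an SKM point to the left, and Scd2 has the highest levels of the set.

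Dhcr7, the reductase that completes cholesterol from its last precursor in one branch of the pathway, gave the widest spread of any member. It stood at 2.80 RPKM in OSKM, 2.10 in G3SKM, 2.86 in SKM and 0.553 in empty vector cells. The 3 groups with factors lay together, and the empty vector value stood apart below them. Against empty vector the fold was 5.07 (4.79 to 5.37) in OSKM, 3.80 (3.59 to 4.02) in G3SKM and 5.17 (4.87 to 5.48) in SKM. These 3 comparisons share the 1 empty vector library. SKM and OSKM did not differ beyond counting error (OSKM against SKM 0.981, 0.941 to 1.02), while OSKM was 1.33 times G3SKM (1.28 to 1.39). On the log2 scale of RPKM + 1 the ratios to empty vector were 1.29 in OSKM, 1.00 in G3SKM and 1.31 in SKM. OSKM and SKM passed the rule of size and G3SKM fell just short of it, at 0.9976 before rounding. Among all genes compared, Dhcr7 was at percentile 97.9 in OSKM, 92.9 in G3SKM and 96.0 in SKM. In bulk RNA, fewer cells that express a gene and less RNA per cell cannot be told apart.

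The mevalonate steps were mostly above empty vector. Acat2, the cytosolic thiolase that makes acetoacetyl-CoA, was at 6.56 RPKM in OSKM, 6.25 in G3SKM, 5.46 in SKM and 4.90 in empty vector cells. Mvk, mevalonate kinase, was at 1.82, 1.91, 2.72 and 1.40 RPKM in that order. Pmvk, phosphomevalonate kinase, was at 2.90, 2.93, 3.23 and 1.53 RPKM. Its fold over empty vector was close to 2 in each group with factors, at 1.89 in OSKM (1.80 to 2.00), 1.92 in G3SKM (1.82 to 2.01) and 2.11 in SKM (1.99 to 2.23), and none of these passed the rule on the deposited scale. Mvd, the decarboxylase that makes isopentenyl diphosphate, was at 2.71 RPKM in OSKM, 2.74 in G3SKM, 4.75 in SKM and 1.63 in empty vector cells. SKM alone passed the rule, with a log2 ratio of 1.13 and a fold of 2.91 (2.73 to 3.09), while the folds of OSKM and G3SKM were 1.66 (1.55 to 1.77) and 1.68 (1.58 to 1.78). Idi1, the isomerase of isopentenyl diphosphate, ran the other way, at 13.8 RPKM in OSKM, 15.7 in G3SKM, 6.32 in SKM and 11.2 in empty vector cells. SKM was the lowest group for Idi1 and the highest for Mvd. Fdps, which makes farnesyl diphosphate, was at 6.54, 6.75, 7.60 and 5.61 RPKM in the same order, a range of 1.35-fold.

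The steps from squalene to cholesterol split. Fdft1, squalene synthase, was at 2.65 RPKM in OSKM, 2.06 in G3SKM, 1.74 in SKM and 1.49 in empty vector cells. Its fold over empty vector was 1.78 in OSKM (1.72 to 1.84), 1.38 in G3SKM (1.33 to 1.43) and 1.17 in SKM (1.12 to 1.22), an order unlike that of Mvd. Sqle, squalene epoxidase, moved least among the sterol enzymes, at 4.12, 3.76, 3.81 and 4.44 RPKM. Lss, lanosterol synthase, was at 1.79 RPKM in OSKM, 1.52 in G3SKM, 1.83 in SKM and 1.21 in empty vector cells. Cyp51, the demethylase of lanosterol, had its highest value in empty vector cells, at 4.67 RPKM, with 3.51 in OSKM, 3.23 in G3SKM and 2.45 in SKM. Its fold was 0.753 in OSKM (0.730 to 0.777), 0.693 in G3SKM (0.674 to 0.713) and 0.525 in SKM (0.505 to 0.547), with no group past the rule. Hsd17b7, a sterol ketone reductase, followed the same order, at 1.86 RPKM in OSKM, 1.73 in G3SKM, 1.49 in SKM and 2.50 in empty vector cells. Tm7sf2 was at 1.98, 2.42, 2.63 and 0.943 RPKM, with folds over empty vector of 2.10 in OSKM (1.89 to 2.34), 2.56 in G3SKM (2.33 to 2.83) and 2.79 in SKM (2.50 to 3.11). These folds stayed under the rule because 1 RPKM is added to low values.

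Msmo1, the methylsterol oxidase that works on the product of Cyp51 and Tm7sf2, was at 4.85 RPKM in OSKM, 6.76 in G3SKM, 2.99 in SKM and 5.46 in empty vector cells. G3SKM was the highest group for this gene and SKM the lowest, 2.27-fold apart (2.17 to 2.37). Nsdhl, the sterol dehydrogenase that acts beside it, was at 0.770 RPKM in OSKM, 0.759 in G3SKM, 0.580 in SKM and 0.712 in empty vector cells. Ebp, a sterol isomerase, was at 3.08, 2.79, 2.80 and 1.97 RPKM, and Sc5d, a sterol desaturase, at 3.64, 3.60, 2.38 and 3.41 RPKM. Ebp was lowest in empty vector cells and Sc5d lowest in SKM cells.

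No regulator or carrier passed the rule of size in any of the 6 comparisons, for which the shares of all genes are given below. Srebf1, which encodes SREBP1, was at 2.74 RPKM in OSKM, 2.74 in G3SKM, 4.30 in SKM and 2.08 in empty vector cells. SKM stood above the other 3, at 2.07 times empty vector (1.99 to 2.15), with a log2 ratio of 0.78. With 0.1 RPKM added in place of 1, that ratio was 1.01, past the rule, beside 16.1% of all genes higher. With the trend along transcript GC removed, as described below, the SKM ratio of Srebf1 to empty vector was 0.39. Srebf2, which encodes SREBP2, was at 3.50 RPKM in OSKM, 2.62 in G3SKM, 4.33 in SKM and 2.73 in empty vector cells. G3SKM was slightly below empty vector for this gene (0.957, 0.937 to 0.978), and OSKM was 1.34 times G3SKM (1.31 to 1.37). Insig1, itself a target of SREBPs that holds them back, was nearly flat, at 9.32 RPKM in OSKM, 8.87 in G3SKM, 7.89 in SKM and 9.31 in empty vector cells. OSKM and empty vector did not differ in Insig1 beyond counting error (1.00, 0.966 to 1.04). Stard4, a carrier of sterol between membranes, was at 3.18, 3.73, 2.69 and 2.75 RPKM in the same order of groups.

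Of the fatty acid genes, Fasn, the synthase that makes palmitate, was at 14.0 RPKM in OSKM, 13.6 in G3SKM, 25.5 in SKM and 11.1 in empty vector cells. SKM stood apart above the other 3, with a fold over empty vector of 2.30 (2.25 to 2.34) and a log2 ratio of 1.13. OSKM was at 1.26 times empty vector (1.24 to 1.28) and G3SKM at 1.22 (1.20 to 1.24). Acly, which supplies cytosolic acetyl-CoA from citrate, was at 4.09 RPKM in OSKM, 3.10 in G3SKM, 4.36 in SKM and 3.003 in empty vector cells. Acaca, the carboxylase that makes malonyl-CoA, was at 0.303, 0.246, 0.295 and 0.206 RPKM. For both, G3SKM was the closest group to empty vector (Acly 1.03, 1.01 to 1.05, and Acaca 1.19, 1.15 to 1.24). Scd1, the other stearoyl-CoA desaturase, was at 8.46 RPKM in OSKM, 7.46 in G3SKM, 9.53 in SKM and 6.496 in empty vector cells. Scd2 was at 31.6, 26.5, 34.8 and 23.8 RPKM, in the same order of groups as Scd1.

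Elovl6, which elongates palmitate to stearate, has long introns and was under 1 deposited RPKM in every group, at 0.859 in OSKM, 0.899 in G3SKM, 0.592 in SKM and 0.380 in empty vector cells. The folds over empty vector were 2.26 in OSKM (2.18 to 2.35), 2.37 in G3SKM (2.28 to 2.45) and 1.56 in SKM (1.49 to 1.63). On exon length it stood at 14.2, 14.8, 9.77 and 6.27 RPKM, with log2 ratios to empty vector of 1.06 in OSKM, 1.12 in G3SKM and 0.57 in SKM. Fads2, which starts the desaturation of polyunsaturated fatty acids, was at 0.981 RPKM in OSKM, 0.626 in G3SKM, 1.16 in SKM and 1.01 in empty vector cells. G3SKM stood below the other 3, at 0.622 times empty vector (0.591 to 0.653) and 0.541 times SKM (0.511 to 0.572). OSKM was 1.57 times G3SKM for Fads2 (1.48 to 1.65). Fads1, the next desaturase of that route, was at 9.77, 8.59, 10.5 and 10.4 RPKM, also lowest in G3SKM.

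Set against all genes, the share of members past the rule was near or under that of the background. In OSKM against empty vector 1 of 26 members past the filter was higher (Dhcr7), with 4.82% of all genes higher and 4.16% lower, and no member was lower. In G3SKM against empty vector no member of 26 was higher or lower, with 7.11% of all genes higher and 3.75% lower. In SKM against empty vector 3 of 26 were higher (Dhcr7, Fasn and Mvd) and none lower, with 8.88% of all genes higher and 5.98% lower. The median log2 ratio of these members was 0.28 in OSKM, 0.25 in G3SKM and 0.36 in SKM, and that of all genes 0.18, 0.17 and 0.15. By role, the 6 mevalonate members had a median of 0.32 in OSKM, 0.37 in G3SKM and 0.51 in SKM. The 10 squalene and sterol members past the filter had medians of 0.20, 0.23 and -0.02, and the 6 fatty acid members past it medians of 0.32, 0.09 and 0.46. With ratios centred on the median of all genes, 1 member was higher in OSKM, 0 in G3SKM and 1 in SKM, and the shares of all genes higher and lower were 2.88% and 5.99% in OSKM, 4.55% and 5.55% in G3SKM and 5.96% and 8.27% in SKM. Because every one of these comparisons uses the same empty vector library, like directions in them are not independent of each other.

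On exon length all 29 members could be compared. Dhcr7 (1.95) and Elovl6 (1.06) were then higher in OSKM, with 8.92% of all genes higher, and the same genes, at 1.57 and 1.12, in G3SKM, with 10.2% higher. In SKM, Dhcr7 (1.98), Mvd (1.44), Fasn (1.16) and Pmvk (1.02) were higher, with 11.9% of all genes higher. With the trend along transcript GC also removed, the 2 members past the rule were Dhcr7 and Elovl6 in OSKM (1.92 and 1.10, background 8.74%), in G3SKM (1.55 and 1.20, background 10.2%) and in SKM (1.75 and 1.01, background 8.28%).

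**Figure D2:**
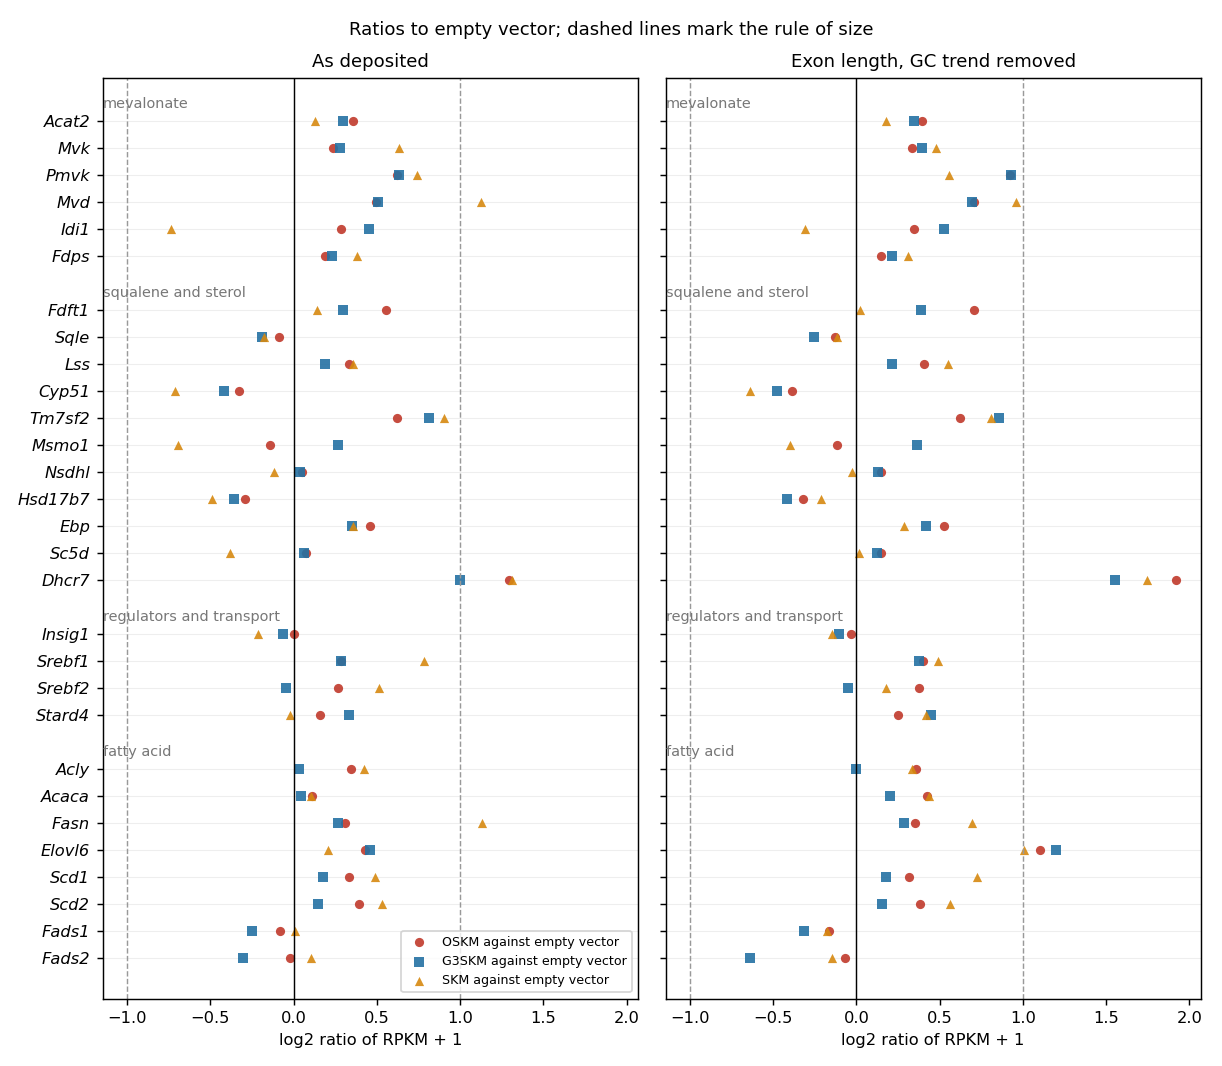
Log2 ratio of RPKM + 1 to empty vector for each of the 29 members, 1 point per group with factors, as deposited (left) and on exon length with the GC trend removed (right), with dashed lines at the rule of size. On the left Dhcr7, Mvd and Fasn in SKM and Dhcr7 in OSKM lie past the line at 1, and on the right Dhcr7 and Elovl6 lie past it in all 3 groups.

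The SKM values of the members followed the GC content of their transcripts, as did those of all genes. In SKM against empty vector, Spearman's rho between log2 ratio and transcript GC was 0.796 over 26 members and 0.496 over 9455 genes. It was 0.458 and 0.0597 in OSKM against empty vector, and 0.259 and -0.00225 in G3SKM against empty vector. These are descriptions across genes, which share libraries and are not independent replicates. Of the 15 members at 49.6% GC or more, the median of the members, 15 had a positive SKM ratio to empty vector. The smallest of these was near 0 (Fads1, 0.01). Of the 14 members below that GC, 9 had a negative ratio. In this comparison 58.3% of all genes past the filter, and 56.5% without the filter, had a positive ratio. Mvd (59.0% GC), Srebf1 (58.4%) and Fasn (57.9%) lay at the GC-rich end, and Idi1 (41.9%), Sc5d (42.9%), Hsd17b7 (43.9%), Stard4 (43.9%), Elovl6 (44.0%) and Msmo1 (44.7%) at the GC-poor end. Of these 6, Elovl6 had a positive SKM ratio (0.21) and Stard4 one near 0 (-0.02), and the other 4 had ratios between -0.74 and -0.38. All genes in the GC bin around 57.9% had a median log2 ratio of 0.53 in SKM against empty vector, and those in the bin around 41.3% had one of -0.43. With the trend removed on the deposited scale, the SKM ratios were 0.75 for Mvd, 0.39 for Srebf1, 0.74 for Fasn and -0.16 for Idi1, and 1.17 for Dhcr7 (52.8% GC). Dhcr7 alone of the 26 then passed the rule in SKM, with 6.01% of 9455 genes higher and 4.25% lower.

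**Figure D3:**
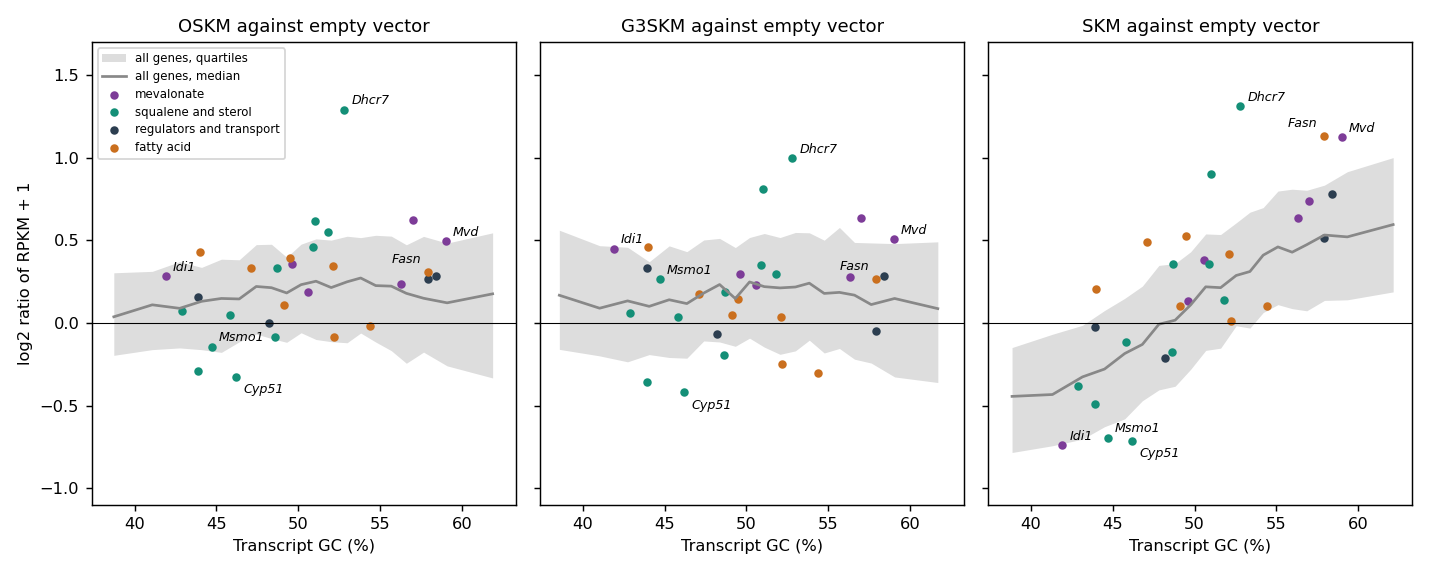
Log2 ratio of RPKM + 1 to empty vector against transcript GC, 1 panel per group with factors, with members as points coloured by role and the median and quartiles of all genes in 20 GC bins as a line and band. The line climbs with GC in SKM and is almost level in OSKM and G3SKM, and Dhcr7 lies above the band in all 3 panels.

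OSKM and G3SKM were each set against SKM, which lacks OCT4 and GATA3. In OSKM against SKM, 1 of 26 members was higher, Idi1, with a log2 ratio of 1.02 and a fold of 2.19 (2.09 to 2.30), and none was lower, against 2.55% of all genes higher and 1.64% lower. In G3SKM against SKM, Idi1 was again the 1 member higher, at 1.19 and 2.48-fold (2.38 to 2.60), with no member lower and 4.43% of all genes higher and 1.1% lower. Both comparisons share the SKM library. Msmo1 came next, with a log2 ratio of 0.55 in OSKM and 0.96 in G3SKM. At the other end stood Fasn (-0.82 in OSKM and -0.86 in G3SKM) and Mvd (-0.63 and -0.62). The members' medians were -0.05 in OSKM and -0.13 in G3SKM, and those of all genes -0.01 and -0.00. These ratios ran against transcript GC, with a rho of -0.761 over the members and -0.708 over all genes in OSKM, and -0.813 and -0.715 in G3SKM. With that trend removed, the ratio of Idi1 was 0.57 in OSKM and 0.69 in G3SKM, that of Msmo1 0.22 and 0.60, that of Fasn -0.48 and -0.49 and that of Mvd -0.21 and -0.19, and no member passed the rule, with 1.07% of all genes higher and 1.03% lower in OSKM and 1.97% and 0.603% in G3SKM.

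OSKM against G3SKM does not use the SKM library. None of 25 members passed the rule in it, with 2.97% of all genes past it in either direction. The median was 0.06 for the members and 0.01 for all genes. Among the 25 members past the filter, Srebf2, Acly and Dhcr7 had the largest positive log2 ratios, at 0.31, 0.31 and 0.29. Msmo1 had the most negative, at -0.41, with a fold of 0.717 (0.694 to 0.741). Fads2, at 0.981 RPKM in OSKM and 0.626 in G3SKM, was left out by the filter. On exon length Fads2 had the largest log2 ratio of all members, at 0.58. All 5 fatty acid members past the filter had a positive ratio, with a median of 0.17, beside 51.8% of all genes. Without the filter 7 of the 8 fatty acid members were positive, and Elovl6 was negative (-0.03). Of 6 mevalonate members 5 had a negative ratio, with a median of -0.03 over the 6. Among those 5, Mvk, Pmvk, Mvd and Fdps did not differ between OSKM and G3SKM beyond counting error.

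On the deposited scale, other genes of lipid metabolism gave few values past the rule. Of 4 genes for SREBP processing (Scap, Insig2, Mbtps1 and Mbtps2), 2 passed the filter against empty vector and 0 passed the rule in any of the 6 comparisons. Scap, the escort of SREBPs, was at 1.34 RPKM in OSKM, 1.31 in G3SKM, 1.98 in SKM and 1.08 in empty vector cells. Of 12 other lipid synthesis genes, 5 passed the filter in SKM against empty vector, and Slc25a1, the mitochondrial citrate carrier, was the 1 past the rule, beside 8.88% of all genes higher in that comparison. Slc25a1 was at 28.3 RPKM in OSKM, 21.8 in G3SKM, 37.9 in SKM and 16.4 in empty vector cells. Its log2 ratio to empty vector was 0.75 in OSKM, 0.39 in G3SKM and 1.16 in SKM, and its transcript holds 59.1% GC. Of 10 genes of fatty acid oxidation, 8 passed the filter and 0 the rule in each of the 6 comparisons. These counts of 0 stand beside the shares of all genes given above for each comparison. Of 6 genes of LXR signalling and sterol efflux, 2 passed the filter in SKM against empty vector. Soat1, which esterifies cholesterol for storage, was lower there, just past the rule with a log2 ratio of -1.003, beside 5.98% of all genes lower. Its transcript holds 44.1% GC, and all genes in the GC bin around 44.5% had a median log2 ratio of -0.28 in that comparison. The log2 ratio of Soat1 to empty vector was -0.84 in OSKM and -0.84 in G3SKM. No other gene of the LXR and efflux list passed the rule in any comparison. Low deposited values kept Abca1 of that list, and Lpin1 of the other lipid synthesis genes, under the filter. On exon length Abca1 was at 3.39 RPKM in OSKM, 1.01 in G3SKM, 0.727 in SKM and 0.755 in empty vector cells. Lpin1 was at 3.52, 1.49, 1.73 and 0.354 RPKM on that scale, in the same order of groups.

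The library labels were checked on the delivered factors and on markers. Sox2 was at 110.5 RPKM in OSKM, 70.7 in G3SKM, 187 in SKM and 0.260 in empty vector cells, where delivered and endogenous transcripts are counted together. Pou5f1, the gene of OCT4, was at 3.69, 0.212 and 0.297 RPKM in OSKM, G3SKM and SKM and listed at 0 in empty vector cells, and Gata3 at 0.571 RPKM in G3SKM and 0.0836 or less elsewhere. Klf4 was at 13.9 RPKM in OSKM, 8.55 in G3SKM, 19.3 in SKM and 6.26 in empty vector cells, so that G3SKM was the closest group to empty vector. Myc went against its delivery, at 10.5 RPKM in OSKM, 6.31 in G3SKM, 11.9 in SKM and 16.0 in empty vector cells. Library depth, worked out from the steps between values, came to 74.7 M (mega) reads in OSKM, 102 in G3SKM, 54.0 in SKM and 111 in empty vector, and the lowest member, Tm7sf2 in empty vector cells, had about 582 reads. Of 10 fibroblast markers, 10 were at 1 RPKM or more on exon length in every group but SKM, which had 9, and their sum was 604 RPKM in OSKM, 668 in G3SKM, 1265 in SKM and 1440 in empty vector cells. Most of that sum was Col1a1 (368, 426, 903 and 851 RPKM) and Col1a2. Lower in every group with factors than in empty vector cells were Col1a2, Col3a1, Pdgfra, Pdgfrb, Thy1, Postn and Twist2. Thy1 was at 36.8, 29.4, 40.7 and 100.4 RPKM, and Pdgfrb at 12.3, 12.6, 21.7 and 37.2 RPKM. By contrast, Dcn (8.02, 3.62, 2.94 and 1.71 RPKM) and Lum (3.60, 1.33, 0.660 and 1.11 RPKM) were highest in OSKM. The 8 macrophage markers summed to 4.98, 9.89, 12.3 and 104.6 RPKM, with 3, 3, 3 and 7 of them at 1 RPKM or more and none listed at 0. The 7 keratinocyte markers summed to 43.9, 60.05, 88.5 and 1.72 RPKM, nearly all of it Krt14 in the groups with factors, and Krt1 was listed at 0 in empty vector cells. At 1 RPKM or more were 1, 3, 3 and 1 of them. Krt5 and Trp63 stayed under 1 RPKM in every group, Krt10 was close to 1 in each, and Lor was highest in SKM, at 2.44. Whether other cell types were present and had a part in the members' ratios to empty vector was not tested. Of 9 adipocyte markers, Fabp4 and Lpl were at 1 RPKM or more in each group, the sums were 10.1, 9.62, 10.1 and 7.22 RPKM, and the adipokine gene Adipoq was between 0.0581 and 0.150 RPKM on exon length.

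Some members share sequence with a listed neighbour, and nothing in the sources used here says that counting used strand. Fdft1 overlaps Ctsb on the other strand by 774 bases, Lss an antisense gene by 11268, Acaca the gene Gm11437 by 19126, Cyp51 overlaps Akap9 by 166 and Srebf1 overlaps Rai1 by 109. Tm7sf2 overlaps Vps51 on the same strand by 532 bases, and a small nuclear RNA gene lies within Fdps. Reads shared between close relatives, such as Scd1 with Scd2, could not be examined from values per gene.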

How the data were processed

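RNA-seq values of 4 samples, 1 per group, were taken from 3 deposited tables. Per the file headers the authors deposited RPKM and the log2 ratio of each table's pair of columns. TopHat 1.3.0 and the genome build mm9 are listed in the submitters' processing notes, and how the replicates were combined is not given in the sources used here. The SKM column was identical in the 3 tables (largest difference 0), so columns of different tables were compared. A listed 0.001 was read as 0. Symbols, spans, exon lengths and transcript GC came from GENCODE M21 (GRCm38) for 25103 genes (91.0%). Values times gene span fell within 0.05 of whole multiples of 1 step for 63.7% to 64.2% of genes with 1 to 1000 reads (10% by chance), which gave depths and reads. For 7 members the reads were within 0.1 of whole numbers in every group; for the others reads and intervals are approximate.

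The deposited RPKM were tested against a rule of size, log2 of the ratio of RPKM + 1 of at least 1, for genes at 1 RPKM or more in a group compared. The procedure was tested on simulated data. Alternatives were a pseudocount of 0.1, no filter, exon length, removal of the median trend over 20 GC bins (the overall median kept), both together, centring on the median and a rule of 0.5. Members, lists and alternatives were chosen with earlier results of these data known. The text names all members and, from the other lists, genes with the largest or smallest ratio of their list; genes named outside that rule were chosen after their values were seen. Python 3.11.15, pandas 2.3.3, numpy 2.4.6, SciPy 1.17.1 and matplotlib 3.10.9 were used.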

Additional observations from a re-analysis of the deposited data

How the results depend on the processing

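No direction of a called member reversed under the alternatives run, but the counts are small and several moved. A pseudocount of 0.1 gave 6 members higher in SKM against empty vector in place of 3, 2 in G3SKM against empty vector in place of 0, and 2 in G3SKM against SKM in place of 1, while the shares of all genes higher were 16.1%, 13.7% and 8.2%. On exon length, 3 members that the filter leaves out were also compared. That scale gave 2 members higher in OSKM against empty vector in place of 1, 2 in G3SKM against empty vector and 2 in G3SKM against SKM. The second member in G3SKM against SKM was Msmo1 (1.08), which passes the filter on the deposited scale (0.96). The shares of all genes higher were then 8.92%, 10.2% and 4.08%. Removal of the GC trend left 1 member higher in SKM against empty vector and 0 in OSKM and in G3SKM against SKM. With exon length and GC together, 2 were higher in OSKM and 2 in G3SKM against empty vector, and 0 in OSKM and 0 in G3SKM against SKM. The shares of all genes higher were 8.74%, 10.2%, 2.19% and 2.06% in that order. Centring on the median left 1 higher in SKM against empty vector. A rule of 0.5 gave 9 higher and 3 lower in SKM against empty vector, 4 higher in OSKM and 4 higher in G3SKM against empty vector, 2 higher and 3 lower in OSKM against SKM, and 2 higher and 4 lower in G3SKM against SKM. At that rule 28.2% of all genes were higher and 18.2% lower in SKM against empty vector, 2243 of 10212 genes higher in OSKM and 25.9% in G3SKM against empty vector, 14.6% higher and 11.5% lower in OSKM against SKM, and 17.4% higher and 12.7% lower in G3SKM against SKM. Without the filter on low values every count was the same. Dhcr7 kept the largest ratio to empty vector of the members in OSKM, G3SKM and SKM under each of these settings.

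No paired analysis was possible because each group has 1 value that combines its replicates. No replicate was left out for the same reason, and nothing here measures variation between cultures or animals. The members had 582 reads or more in every group.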

Other observations

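Some lipid genes outside the set were chosen here after their values were seen. Lpin1, a phosphatidate phosphatase that makes diacylglycerol for triglyceride and phospholipid, was at 0.451 RPKM in OSKM, 0.191 in G3SKM, 0.222 in SKM and 0.0454 in empty vector cells. Its folds over empty vector were 9.94 in OSKM (8.92 to 11.1), 4.21 in G3SKM (3.76 to 4.73) and 4.89 in SKM (4.33 to 5.52), all at levels under the filter. Abca1, the pump that passes cholesterol to lipoproteins, was at 0.272 RPKM in OSKM, 0.0809 in G3SKM, 0.0583 in SKM and 0.0606 in empty vector cells, so that OSKM stood apart from the other 3. OSKM was 4.49 times empty vector for this gene (4.16 to 4.85) and 3.37 times G3SKM (3.13 to 3.62). Soat1, which is high in macrophages, was at 0.693 RPKM in OSKM, 0.692 in G3SKM, 0.516 in SKM and 2.04 in empty vector cells. Its fold was 0.340 in OSKM (0.326 to 0.355), 0.340 in G3SKM (0.327 to 0.353) and 0.253 in SKM (0.239 to 0.267), and the summed macrophage markers were also highest in empty vector cells. The part of macrophage RNA in the Soat1 values was not tested.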
